A study of Mus musculus with 6 samples.

Results

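The genes described here are 44 genes of DNA replication and of the passage from G1 into S phase, chosen by name as the main parts of the replication machinery, the enzymes that supply its nucleotides, and the E cyclins and E2F factors. All 44 were found among the 57186 genes of the deposited count table, and all 44 were among the 17837 genes with enough counts to be tested. The libraries were bulk RNA-seq of cells without the leukocyte antigen CD45, sorted from tumours that MB49 cells had formed after injection under the skin of C57Bl/6J mice and taken at 500 mm3. MB49 is a bladder carcinoma line from a male mouse. In 3 libraries the injected cells had the genotype CRISPR Y-KO, in which the Y chromosome is the target of the editing, and in the other 3 the genotype CRISPR Y-Scr, the control. Both groups share the cell line, the host strain, the gate and 1 batch label. Whether a line is 1 clone, the age and sex of the hosts, and whether replicates are separate animals are not given in the sources used here, so p-values speak only of the spread among the 6 libraries, and that spread may be technical.

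Before a cell copies its DNA, the origin recognition complex, CDC6 and CDT1 load the MCM helicase onto origins in G1, and geminin blocks CDT1 once S phase has begun. In S phase the kinase CDC7, CDC45, MCM10 and the GINS complex turn the loaded helicase into a moving one, and polymerases follow it together with the sliding clamp PCNA, its loader RFC and the single-strand binding protein RPA. Cyclin E with its kinase, and E2F transcription factors released from the retinoblastoma protein, start this programme. Transcripts of many of these genes peak around the start of S phase, so their level in a bulk sample follows, among other things, how many cells are cycling. In bulk RNA, fewer cycling cells and less RNA per cell cannot be told apart.

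The promoters are shown because an E2F site is a textbook element of many of these genes. RefSeq promoters of build GRCm38.p6, from 250 bases before to 50 after each gene start, were matched for 35 of the 44 genes. The motifs searched on both strands were TTTCGCGC and TTTGGCGC. The first and the reverse complement of the second share the letters GCGC, so that 1 run can count for both. Either motif was found in 10 of the 35 genes (28.6%), against 251 of all 27025 genes with a promoter in the table (0.929%). With the 250 bases before the start alone, 5 of the 35 genes and 0.759% of all genes held a motif. Over the whole window, 4 of the 8 genes with a promoter that rose in Y-KO (below) held one, and 6 of the 27 not called. This split depends on the window. With the bases before the start alone, the genes with a motif were Mcm5, Mcm6, Orc1, Pola1 and Rfc3, and of these only Mcm6 rose. The pentamer CCAAT, bound by the factor NF-Y, was found on either strand in 22 of the 35 (62.9%) and in 41.1% of all genes. These matches describe letters and not bound sites.

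The 3 longer stretches lie before the gene start, with the motif letters in capitals, read 5' to 3' along the gene. They are from Mcm6 (chr1:128359706-128359855, minus strand), Mcm5 (chr8:75109316-75109407, plus strand) and Orc1 (chr4:108579387-108579453, plus strand). Mcm6 was called higher in Y-KO and the other two were not.
Mcm6: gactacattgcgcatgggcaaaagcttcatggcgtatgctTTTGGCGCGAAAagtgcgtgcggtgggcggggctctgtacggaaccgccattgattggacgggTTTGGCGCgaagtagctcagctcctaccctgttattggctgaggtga
Mcm5: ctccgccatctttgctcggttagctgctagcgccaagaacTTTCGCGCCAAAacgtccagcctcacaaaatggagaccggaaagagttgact
Orc1: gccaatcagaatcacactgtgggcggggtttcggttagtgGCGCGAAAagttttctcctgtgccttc

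In 5 genes the motif lay within the first bases after the start, and 4 of them are printed as 30-base windows. They are from Mcm3 (chr1:20820263-20820292, minus strand), Mcm7 (chr5:138171849-138171878, minus strand), Cdt1 (chr8:122568035-122568064, plus strand) and E2f2 (chr4:136172294-136172323, plus strand). The first 3 genes rose in Y-KO, while E2f2 is the gene of the 44 with a fitted difference below 0. Lig1, the gene not printed, was not called.
Mcm3: cgggaaaacttgggaagtTTTGGCGCcaag
Mcm7: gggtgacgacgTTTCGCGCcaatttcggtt
Cdt1: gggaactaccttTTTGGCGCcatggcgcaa
E2f2: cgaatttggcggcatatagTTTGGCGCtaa

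Library totals ran from 42040955 to 52951031 counts, and the 44 genes took 0.291% to 0.346% of them. Levels are given as CPM, counts relative to library sizes that were scaled by TMM, a trimmed mean of ratios between libraries. The Y-linked gene Kdm5d stood at 4.42, 3.79 and 1.77 CPM for Y-KO replicates 1, 2 and 3 and at 39.3 to 46.7 CPM for Y-Scr, which checks the labels. The epithelial keratin genes Krt8 and Krt18 were at 1414 CPM and above and at 886 CPM and above in all 6 libraries, whereas the uroplakin genes Upk2 and Upk3a, which define mature urothelium, had 0 counts in all 6. Counts on the mitochondrial genome took 6.39% to 6.44% of each Y-KO library and 2.87% to 2.99% of each Y-Scr library. Y-KO replicate 3 stood apart from the other Y-KO libraries: over all genes tested, its median absolute log2 difference was 0.342 from replicate 1 and 0.353 from replicate 2, against 0.179 between those. Y-Scr replicates 2 and 3 were the closest pair, at 0.135. Each of the 44 genes that was called higher is therefore given with its value in Y-KO replicate 3, and the count is repeated without each library. Of the other lists, several called genes are given by a fold or a group mean alone. Some genes that were not called are given by their fitted difference alone.

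The genes as a set stood higher in Y-KO by a small amount. Of the 44, 9 rose and none fell (adjusted p under 0.05 in edgeR's quasi-likelihood test, with Benjamini-Hochberg adjustment over all genes tested), which is 20.5% of them, against 7.82% of all genes tested that were called higher and 8.27% called lower. None of the 44 was lower at an unadjusted p under 0.05, against 2785 of the 17837 genes tested. None was called lower by DESeq2 or limma-voom. The 44 genes had a mean log2 CPM of 5.37 to 5.76 per library, against 2.98 to 3.23 for all genes tested. The shares of all genes are therefore not matched for level. The median log2 fold change (Y-KO minus Y-Scr throughout) was 0.30, a fold of 1.23, against -0.03 over all genes. The fitted difference was above 0 for 43 of the 44, and above 0 for 47.5% of all genes; with library size alone as the scaling, which moved the median of all genes to -0.17, it was above 0 for 35, while 43 again lay above the median of all genes. In 27 of the 44 (61.4%) all Y-KO values were above all Y-Scr values, which held for 17.5% of all genes, and in 1, E2f2, all were below, which held for 20.3%. The 44 genes summed to 3617, 3661 and 3105 CPM for Y-KO replicates 1, 2 and 3 and to 2843, 2742 and 2781 CPM for Y-Scr, so that replicate 3 lay between the other Y-KO libraries and Y-Scr.

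The count of 9 depended on which libraries entered the fit. Without Y-KO replicate 1 or 2, 3 of the 44 were called higher, while 3.86% and 3.90% of all genes were called higher and 5.35% and 5.62% lower. Without Y-KO replicate 3, which leaves the close pair of Y-KO libraries, 28 were higher (63.6%), against 16.0% of all genes higher and 17.7% lower. Leaving out Y-Scr replicate 1 gave 7, against 5.20% of all genes higher and 4.06% lower. Leaving out Y-Scr replicate 2 or 3 gave 2, against 2.45% and 2.56% of all genes higher and 3.10% and 3.01% lower. With each close pair (Y-KO replicates 1 and 2, Y-Scr replicates 2 and 3) summed into 1 sample, none of the 44 was called, and 0.700% of all genes were higher and 1.85% lower. Cdt1 and Mcm7 were the members called in all 6 fits that leave out 1 library.

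Other ways of testing called 4 to 13 members, and the shares in parentheses are of all genes tested in the same fit. DESeq2 called 13 (all genes 5.64% higher, 6.55% lower), limma-voom 11 (8.55% and 9.83%), edgeR with DESeq2 size factors 11 (8.08% and 8.16%) and edgeR with library size alone 4 (4.09% and 12.6%). Without a filter 13 were called (5.24% and 6.69%), with a filter at 1 CPM in 3 libraries 10 (10.2% and 10.4%), with halved counts 12 (9.35% and 9.57%) and with the replicate number as a block 5 (5.30% and 6.28%). None of these called a member lower.

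**Figure D1:**
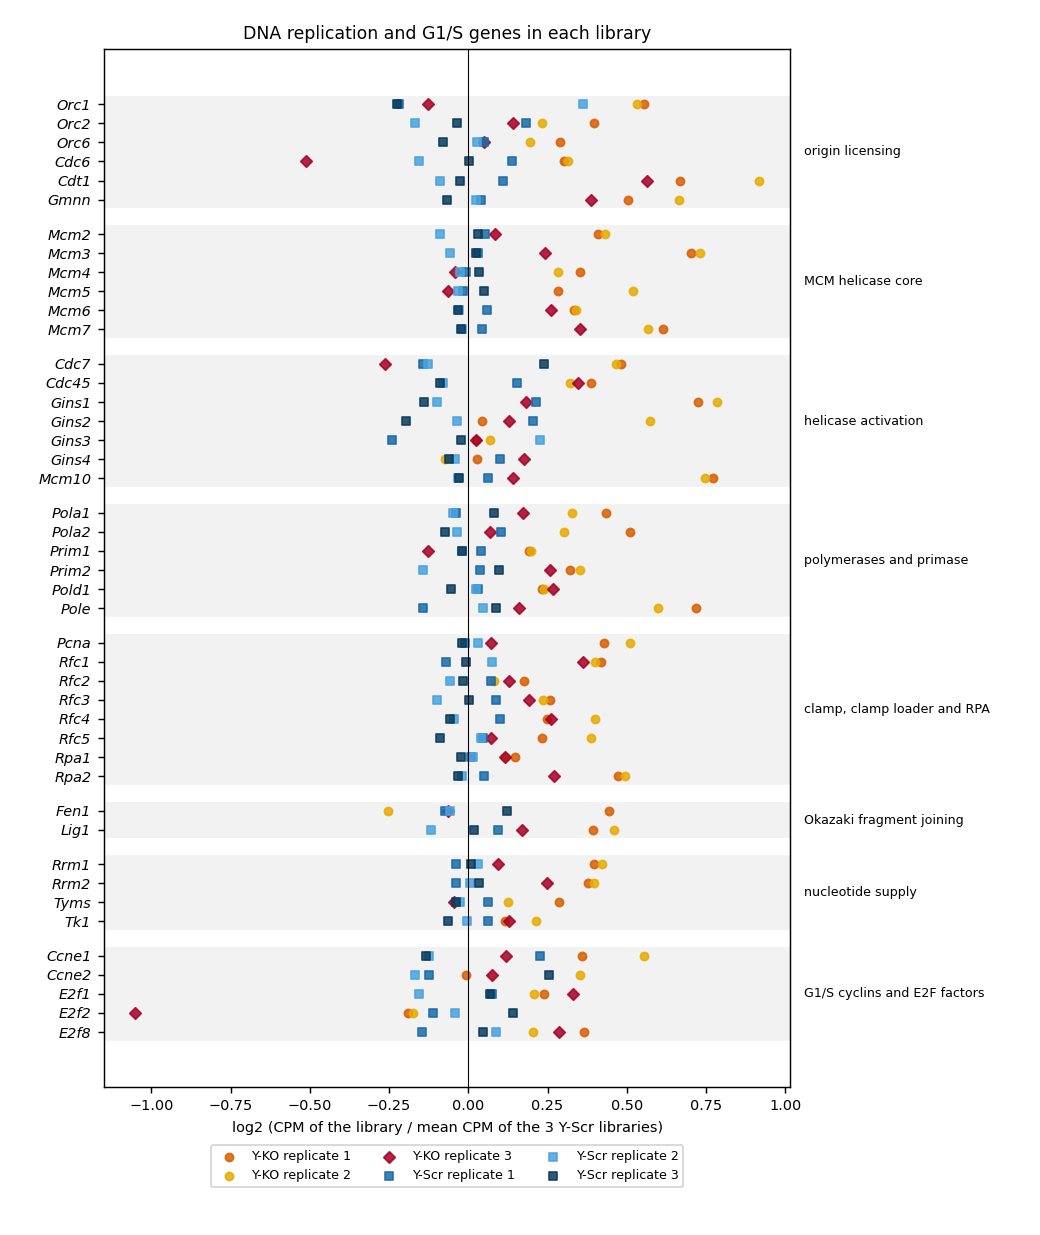
Level of each of the 44 genes in each library, as log2 of its CPM over the mean CPM of the 3 Y-Scr libraries, ordered by role. Orange and yellow circles are Y-KO replicates 1 and 2, red diamonds Y-KO replicate 3 and blue squares the Y-Scr libraries. Most circles lie to the right of the squares, the diamond lies between them for many genes, and E2f2 and Cdc6 have the diamonds farthest to the left.

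Among the 6 genes that license origins, a loader and its inhibitor both rose (33.3%, against 7.82% of all genes tested). Cdt1, which brings the MCM helicase to origins (chromosome 8, 123294754 to 123300293, GRCm39), stood at 90.7, 108 and 84.3 CPM for Y-KO and at 61.6, 53.6 and 56.0 CPM for Y-Scr. The groups did not overlap, and Cdt1 had the largest fold of the 44, 1.65 (log2 fold change 0.72 ± 0.11 SE, adjusted p = 0.00418 by edgeR). Gmnn, which encodes geminin, the inhibitor of CDT1 (chromosome 13, 24935828 to 24945906), stood at 43.9, 49.0 and 40.5 CPM for Y-KO and at 31.8, 31.5 and 29.6 CPM for Y-Scr. It rose 1.44-fold (log2 fold change 0.52 ± 0.11 SE, adjusted p = 0.0126 by edgeR), and leaving out Y-Scr replicate 2 or 3 ended the call (adjusted p = 0.0597 and 0.0678). An unnamed gene on the other strand overlaps 23.0% of its exon length. The origin recognition subunits Orc1, Orc2 and Orc6 were not called, with log2 fold changes of 0.35, 0.26 and 0.18. Orc1, the subunit whose level changes with the cell cycle in mammals, was the lowest of these, at 5.52 to 8.85 CPM for Y-KO and 5.16 to 7.74 CPM for Y-Scr, and the groups overlapped. Cdc6, which acts with CDT1 to load the helicase, did not share their pattern. It was at 23.7 and 23.9 CPM for Y-KO replicates 1 and 2 but at 13.5 CPM in replicate 3, below all Y-Scr libraries (17.3 to 21.2 CPM), with a fitted log2 fold change of 0.08 (± 0.22 SE; adjusted p = 0.842 by edgeR).

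The MCM proteins 2 to 7 form the ring of the replicative helicase, with 1 copy of each. Of their 6 genes, 3 rose (50%, against 7.82% of all genes tested) and 3 were not called. Mcm7 (chromosome 5, 138162845 to 138170684) stood at 284, 275 and 237 CPM for Y-KO and at 191, 183 and 182 CPM for Y-Scr, a 1.43-fold rise (log2 fold change 0.52 ± 0.09 SE, adjusted p = 0.00666 by edgeR). Mcm3 (chromosome 1, 20873192 to 20890536) stood at 234, 239 and 170 CPM against 147, 138 and 146 CPM. Its fold of 1.49 was the largest of the 6, but the call (edgeR adjusted p = 0.0199) was lost when any 1 library but Y-KO replicate 3 was left out (adjusted p from 0.0584 to 0.0908). Mcm6 (chromosome 1, 128259327 to 128287401) was at 250, 251 and 238 CPM against 207, 194 and 194 CPM, so that all Y-KO libraries were close together and above all Y-Scr libraries (log2 fold change 0.31 ± 0.07 SE, adjusted p = 0.0243 by edgeR). That call was lost without Y-KO replicate 1 or 2 or Y-Scr replicate 2 or 3, where adjusted p ran from 0.0861 to 0.122. Mcm4 and Mcm5 showed a different arrangement: Mcm4 was at 162 and 155 CPM for Y-KO replicates 1 and 2 and Mcm5 at 153 and 180 CPM, all above Y-Scr, while replicate 3 was at 123 and 120 CPM, below all 3 Y-Scr libraries for both genes. Mcm2 did not overlap between groups (127 to 161 CPM against 112.4 to 124 CPM) but was not called (edgeR adjusted p = 0.0849).

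Per kilobase of exon, the 6 levels differed within each library although the proteins work in equal number. In Y-Scr, Mcm2 had the lowest level per length at 17.2 CPM per kb, then Mcm5 at 31.5, Mcm4 at 35.4, Mcm3 at 38.3, Mcm7 at 41.9 and Mcm6 at 42.5 CPM per kb. In each Y-Scr library Mcm6 was highest, by less than the spread of the group over Mcm7. Other genes share 12.6% of the exon length of Mcm7, where reads that fit several genes were left out, and none of that of Mcm6. The order of Mcm6 and Mcm7 is therefore not settled. In Y-KO replicates 1 and 3 Mcm7 was highest and in replicate 2 Mcm3, at 63.7 CPM per kb. The highest level was 2.37 to 2.58 times the lowest in Y-Scr and 2.75 to 2.94 times in Y-KO. Exon length counts every annotated isoform, which lowers the level per length of genes with long rare exons.

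**Figure D2:**
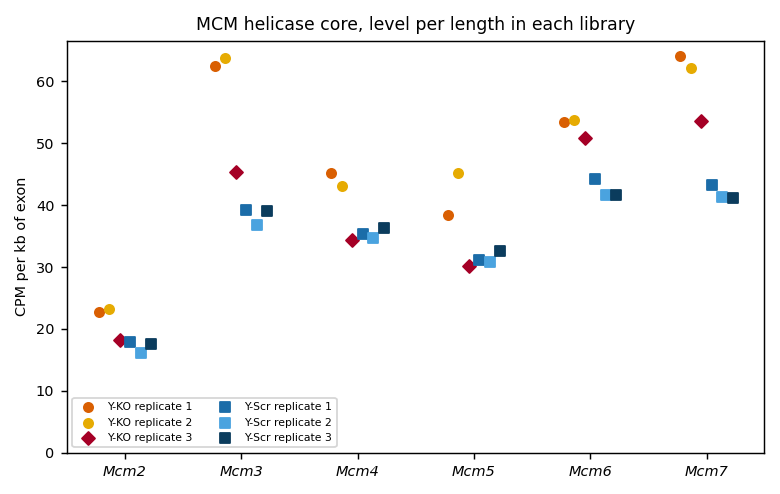
Level of the 6 MCM helicase genes per kilobase of exon (CPM per kb, axis from 0) in each of the 6 libraries, with circles for Y-KO replicates 1 and 2, diamonds for Y-KO replicate 3 and squares for Y-Scr. Mcm2 is lowest in every library, and for Mcm4 and Mcm5 the diamond lies below the squares.

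Of the 7 genes that activate the loaded helicase, 1 rose (14.3%, against 7.82% of all genes tested), and a count of 1 is no result about the role. Cdc45, a subunit of the moving helicase (chromosome 16, 18599197 to 18630737), stood at 59.8, 57.2 and 58.2 CPM for Y-KO and at 50.9, 43.3 and 43.0 CPM for Y-Scr (log2 fold change 0.35 ± 0.10 SE, adjusted p = 0.0436 by edgeR). Here Y-KO replicate 3 was as high as the others, and the call was lost without Y-KO replicate 1 or 2 or Y-Scr replicate 2 or 3, where adjusted p ran from 0.0971 to 0.183. Mcm10, a scaffold at the fork, had a larger fold but more spread, at 33.6, 33.0 and 21.7 CPM against 20.5, 19.2 and 19.3 CPM (log2 fold change 0.58 ± 0.17 SE, adjusted p = 0.0513 by edgeR). The GINS subunits, which also form a complex with 1 copy of each, had fitted differences from near 0 to among the largest of the 44: Gins1 had a log2 fold change of 0.59 (± 0.19 SE; adjusted p = 0.0756 by edgeR), Gins2 of 0.27, Gins3 of 0.04 and Gins4 of 0.05, none of them called. The differences between these genes were not tested. Gins3 was at 9.90 to 10.2 CPM for Y-KO, inside the Y-Scr range of 8.24 to 11.4 CPM. Gins2 shares 67.3% of its exon length with Gse1 on the other strand, where reads could not be assigned. Cdc7, the kinase that triggers the helicase, was at 21.3 and 21.0 CPM for Y-KO replicates 1 and 2 and at 12.7 CPM in replicate 3, below the Y-Scr range of 13.8 to 18.0 CPM.

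None of the 6 polymerase and primase genes was called. At an unadjusted p under 0.05, 5 of them were higher in Y-KO and none lower. Of the 17837 genes tested, 2686 were higher and 2785 lower at that unadjusted p. The catalytic subunit of the leading-strand polymerase, Pole, was at 47.4, 43.6 and 32.3 CPM for Y-KO and at 26.1, 29.8 and 30.6 CPM for Y-Scr, with no overlap (log2 fold change 0.51 ± 0.15 SE, adjusted p = 0.0536 by edgeR). Pold1, its lagging-strand counterpart, was at 117, 117 and 120 CPM against 101, 101 and 95.7 CPM, a smaller and steadier difference (log2 fold change 0.25 ± 0.08 SE, adjusted p = 0.0615 by edgeR). Of polymerase alpha, which with primase lays down primers, Pola1 and Pola2 had log2 fold changes of 0.32 and 0.30, and of primase Prim2 had 0.31 and Prim1 0.10. Prim1 in Y-KO replicate 3 (26.6 CPM) was below the 3 Y-Scr libraries (28.6 to 29.8 CPM).

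All 8 genes of the clamp, its loader and RPA had Y-KO values wholly above Y-Scr, which held for 17.5% of all genes tested. Of the 8, 2 rose (25%, against 7.82% of all genes tested). Rfc1, the large subunit of the clamp loader (chromosome 5, 65419193 to 65493013), stood at 72.4, 71.4 and 69.7 CPM for Y-KO and at 51.6, 57.1 and 53.9 CPM for Y-Scr (log2 fold change 0.39 ± 0.08 SE, adjusted p = 0.0162 by edgeR). Rpa2, the middle RPA subunit (chromosome 4, 132495643 to 132506063), was at 47.8, 48.6 and 41.5 CPM against 35.7, 34.0 and 33.7 CPM (log2 fold change 0.42 ± 0.10 SE, adjusted p = 0.0245 by edgeR). The call of Rfc1 was lost without any library other than Y-KO replicate 3 or Y-Scr replicate 1 (adjusted p from 0.0545 to 0.0753). The call of Rpa2 was lost without the same 4 libraries (adjusted p from 0.0865 to 0.109). Pcna, the clamp itself and the highest of the 44 per length (80.5 CPM per kb in Y-KO and 63.2 in Y-Scr), was at 204, 216 and 159 CPM against 151, 155 and 150 CPM, and did not pass (log2 fold change 0.35, edgeR adjusted p = 0.0756). The small clamp loader subunits Rfc2 to Rfc5 had log2 fold changes of 0.13 to 0.31, and the large RPA subunit Rpa1 of 0.13 (SE 0.07).

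The enzymes that join Okazaki fragments are a flap nuclease and a ligase. The ligase gene Lig1 was at 128, 134 and 110 CPM for Y-KO and at 104, 90.01 and 98.9 CPM for Y-Scr, with no overlap (log2 fold change 0.35 ± 0.10 SE, adjusted p = 0.0543 by edgeR). The nuclease gene Fen1 was the lowest of the 44, at 1.20 to 1.94 CPM for Y-KO and 1.35 to 1.55 CPM for Y-Scr, which is 0.619 and 0.588 CPM per kb against 29.4 and 23.1 CPM per kb for Lig1. In the annotation used, 84.2% of the exon length of Fen1 is shared with genes on the other strand, 78.8% with the gene model Gm10143, which itself had 0.458 CPM for Y-KO and 0.367 CPM for Y-Scr. The counting did not use strand and left out reads that fit several genes, so the level of Fen1 cannot be read from the deposited values.

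For nucleotide supply, Rrm2, the regulated subunit of ribonucleotide reductase (chromosome 12, 24758240 to 24764145), rose: it stood at 155, 157 and 141 CPM for Y-KO and at 116, 119 and 122 CPM for Y-Scr (log2 fold change 0.34 ± 0.08 SE, adjusted p = 0.0229 by edgeR). Leaving out any 1 library but Y-KO replicate 3 ended the call (adjusted p from 0.0551 to 0.100). The large subunit gene Rrm1 had a similar fitted difference of 0.31 (± 0.10 SE, adjusted p = 0.0712 by edgeR), at 216, 220 and 175 CPM against 160, 168 and 165 CPM. The thymidylate genes differed less, Tyms with 0.13 (SE 0.11) and the thymidine kinase gene Tk1 with 0.15 (SE 0.08), neither called.

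No G1/S cyclin or E2F gene was called. Cyclin E genes had log2 fold changes of 0.35 for Ccne1 (SE 0.17) and 0.15 for Ccne2 (SE 0.17), with overlapping groups. E2f1, an activating factor, was at 41.0, 40.1 and 43.7 CPM for Y-KO and at 36.6, 31.2 and 36.4 CPM for Y-Scr, and E2f8, a repressor that acts later in S phase, at 63.9, 57.2 and 60.5 CPM against 44.8, 52.7 and 51.3 CPM. In both genes Y-KO lay wholly above Y-Scr, and Y-KO replicate 3 was within or above the other Y-KO values (edgeR adjusted p = 0.127 and 0.0849). E2f2, also an activating factor, lay the other way, at 44.9, 45.4 and 24.7 CPM for Y-KO and at 47.4, 49.7 and 56.5 CPM for Y-Scr. All Y-KO values were below all Y-Scr values, replicate 3 by far the most, and the difference did not pass (log2 fold change -0.42 ± 0.21 SE, adjusted p = 0.229 by edgeR).

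**Figure D3:**
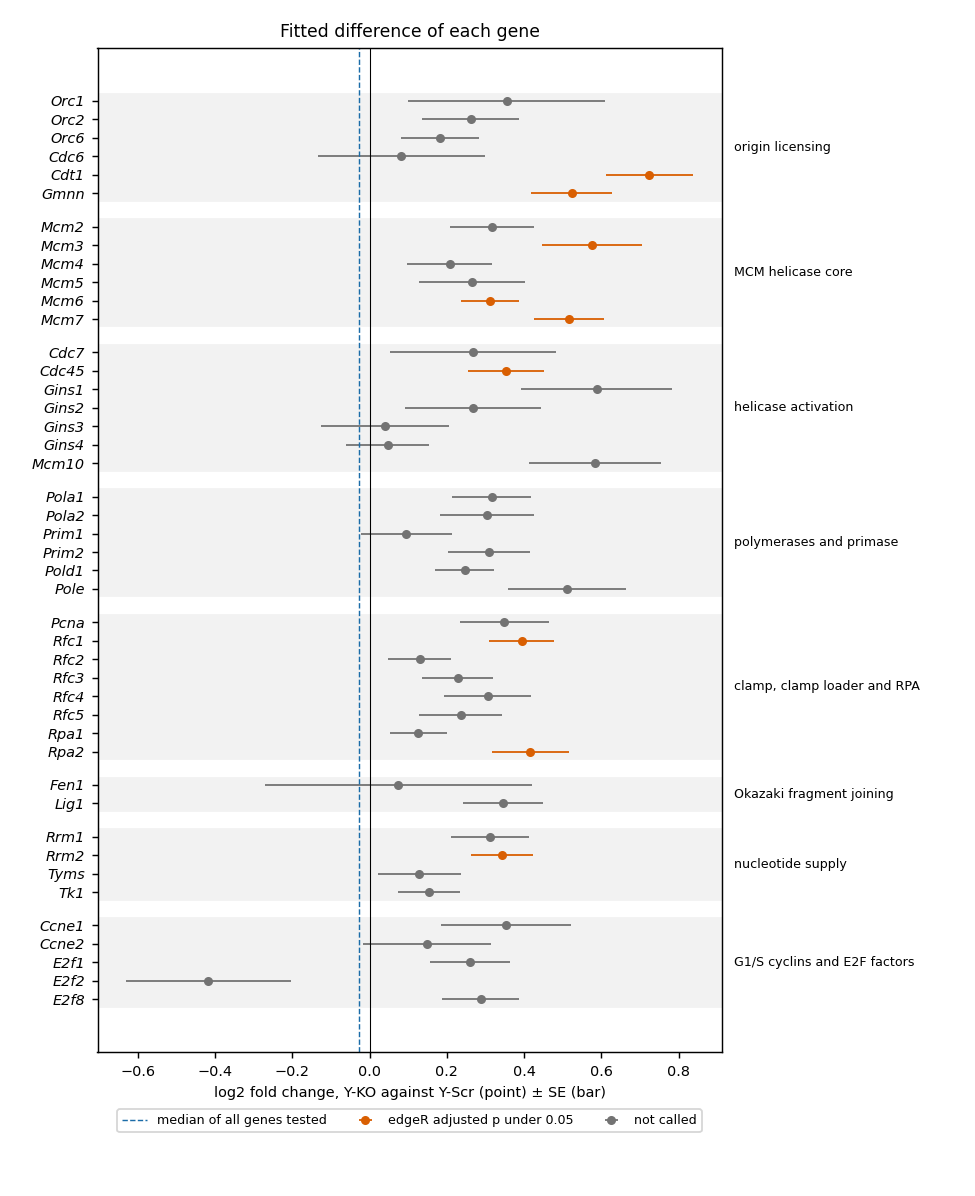
Fitted log2 fold change of each gene (point) with its SE (bar), Y-KO against Y-Scr, ordered by role, with the 9 called genes in orange and the median of all genes tested (-0.03) as a dashed line. E2f2 is the 1 point left of 0, and most other points lie between 0.1 and 0.6.

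Y-KO replicate 3 was the lowest Y-KO library for 32 of the 44 genes (72.7%), which held for 39.2% of all genes tested. Relative to the Y-Scr mean, the median log2 CPM difference of the 44 was 0.34 for Y-KO replicates 1 and 2 and 0.14 for replicate 3, while over all genes these medians were -0.04 and -0.01. Replicate 3 lay above all Y-Scr libraries for 28 genes, within their range for 9 (among them Orc1, Gins1 and Ccne1) and below for 7, which were Cdc6, Mcm4, Mcm5, Cdc7, Prim1, Tyms and E2f2. Replicates 1 and 2 lay above all Y-Scr libraries for 39 and 40 genes. Of the 17837 genes tested, 6366, 6293 and 6225 lay above all Y-Scr libraries in Y-KO replicates 1, 2 and 3. In replicate 3, 4833 of them lay within the Y-Scr range and 6779 below it. The roles differed in how far replicate 3 lay under the others: by a median of -0.35 for the MCM helicase core and -0.06 for the clamp, clamp loader and RPA genes. By single gene the gap was widest for E2f2 (-0.87), Cdc6 (-0.82), Cdc7 (-0.73), Orc1 (-0.67) and Mcm10 (-0.62), and near 0 for Cdc45, Rfc2 and E2f8. Gins4, E2f1 and Pold1 were highest in replicate 3. With 1 library against 2 there is no test of this.

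Over these genes, Y-KO replicate 3 was no nearer to its own group than to Y-Scr. Its median absolute log2 difference over the 44 was 0.126, 0.230 and 0.186 from Y-Scr replicates 1, 2 and 3 and 0.231 and 0.241 from Y-KO replicates 1 and 2. A mean chi-square per gene against counting noise gave the same order over the 44, at 41.3 to 58.8 from the Y-Scr libraries and 69.8 and 80.2 from Y-KO replicates 1 and 2. Over all genes tested the chi-square put replicate 3 nearer to its own group (94.1 and 93.0, against 157 to 174 from Y-Scr). The median absolute difference over all genes gave no such order, at 0.332 to 0.375 from Y-Scr and 0.342 and 0.353 from Y-KO.

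**Figure D4:**
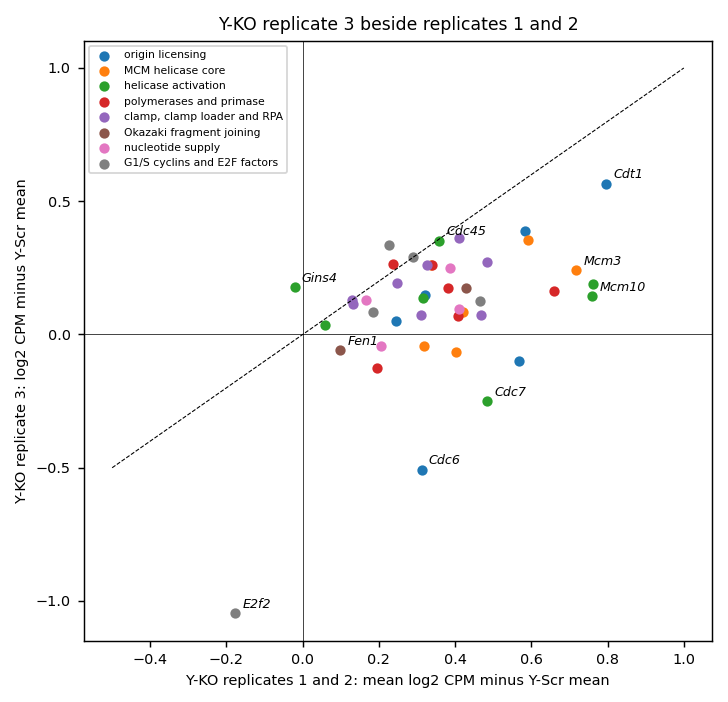
Each point is 1 of the 44 genes, coloured by role: x axis, mean log2 CPM of Y-KO replicates 1 and 2 minus the Y-Scr mean, y axis, log2 CPM of Y-KO replicate 3 minus the Y-Scr mean, with equal values on the dashed line. Most points lie below the line and above 0 on both axes, Cdc6 and Cdc7 are among the points below 0 in replicate 3 but not in replicates 1 and 2, and E2f2 reaches -1.05 in replicate 3.

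Of 39 other genes of the replication machinery, 8 rose (20.5%, against 7.82% of all genes tested), 2 fell (5.13%, against 8.27%) and 29 were not called, with a median log2 fold change of 0.29. Chaf1b, a subunit of the histone chaperone that follows the fork, rose 1.68-fold from 24.2 ± 2.02 to 40.7 ± 5.56 CPM (SD, n = 3; adjusted p = 0.00654 by edgeR). Rnaseh2a and Rnaseh2b, subunits of the nuclease that removes ribonucleotides from DNA, rose 1.48-fold and 1.40-fold, Rnaseh2a to 66.0, 65.3 and 69.2 CPM from 45.5, 45.9 and 44.2 CPM. Dut, which keeps uracil out of DNA, rose 1.39-fold (edgeR adjusted p = 0.00883). The 2 genes that fell were Rrm2b, the p53-induced reductase subunit used outside S phase, from 26.1 ± 1.47 to 17.7 ± 2.58 CPM (SD, n = 3; adjusted p = 0.0266 by edgeR), and Pole4, a small accessory subunit of polymerase epsilon, from 31.4 ± 1.25 to 24.3 ± 0.138 CPM (edgeR adjusted p = 0.0345).

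Of 28 other G1/S control genes tested, 2 rose and 3 fell, with a median log2 fold change of 0.09. These shares, 7.14% higher and 10.7% lower, are near those of all genes tested (7.82% and 8.27%), so the counts are no result about the list. Cks1b, a partner of cyclin-dependent kinases, rose 1.43-fold and Cdk4, the kinase of the D cyclins, 1.21-fold (edgeR adjusted p = 0.0218 and 0.0438). The 3 that fell were Rbl2, which encodes the pocket protein p130 of resting cells, at 29.5, 29.7 and 37.4 CPM for Y-KO and 44.3, 52.1 and 51.5 CPM for Y-Scr (log2 fold change -0.61 ± 0.13 SE, adjusted p = 0.0138 by edgeR), the repressor E2f6 (-1.25 ± 0.31 SE, adjusted p = 0.0267 by edgeR) and the kinase inhibitor Cdkn2d (-0.32 ± 0.09 SE, adjusted p = 0.0447 by edgeR). The other pocket protein genes Rb1 and Rbl1 were not called (0.12 and -0.17). Among the cyclins Ccna2 (0.42), Ccnd1 (0.20), Ccnd2 (-0.33) and Ccnd3 (-0.23), among the E2F genes E2f4 (0.40) and E2f7 (0.48), and among the inhibitors Cdkn1a (0.45) and Cdkn1b (-0.40) were not called either. Cdkn1a, which encodes p21, was at 266, 283 and 175 CPM for Y-KO and 169 to 189 CPM for Y-Scr, so that its Y-KO replicate 3 was within the Y-Scr range. Over both lists 10 of the 67 genes tested rose (14.9%, against 7.82% of all genes tested) and 5 fell (7.46%). The share that fell is near the 8.27% of all genes, so that count is no result about the lists. The 10 that rose became 31 when Y-KO replicate 3 was left out (16.0% of all genes were then higher). They became 4 and 3 when Y-KO replicate 1 and 2 were (3.86% and 3.90%), 2 when Y-Scr replicate 2 or 3 was (2.45% and 2.56%), and 0 with close pairs summed (0.700%). The 5 that fell became 9 when Y-KO replicate 3 was left out (17.7% of all genes were then lower). They became 1 for Y-KO replicate 1 (5.35%) or Y-Scr replicate 1 (4.06%). They became 0 for Y-KO replicate 2 (5.62%), Y-Scr replicate 2 (3.10%) or Y-Scr replicate 3 (3.01%) or with close pairs summed (1.85%).

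The 26 mitosis genes set beside them had 7 that rose (26.9%, against 7.82% of all genes tested) and none that fell, against 8.27% (none at an unadjusted p under 0.05, and none by DESeq2), with a median log2 fold change of 0.29 that is near the 0.30 of the replication genes. Ube2c, which drives mitotic exit, rose 1.61-fold to 131, 142 and 109 CPM from 85.1, 74.7 and 77.7 CPM (edgeR adjusted p = 0.00566). Mybl2, an activator of late cell cycle genes, rose 1.96-fold, at 45.1, 52.1 and 28.9 CPM against 20.1 to 23.2 CPM, and the kinase gene Aurkb 1.40-fold (edgeR adjusted p = 0.0141 and 0.0211). Y-KO replicate 3 was the lowest Y-KO library for 24 of the 26. The 7 became 20 when Y-KO replicate 3 was left out (16.0% of all genes were then higher), 2 for Y-KO replicate 1 or 2 or Y-Scr replicate 1, 1 for Y-Scr replicate 2 or 3, and 0 with close pairs summed.

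Markers of other cell types moved with the group and with Y-KO replicate 3. For the counts of called markers below, the shares of all genes tested were 7.82% higher and 8.27% lower. The 13 pan-leukocyte markers, of which 5 fell and none rose, summed to 3371, 3425 and 1606 CPM for Y-KO and to 4015 to 4177 CPM for Y-Scr, and 12 of the 14 T and NK cell markers fell, with sums of 190 to 339 CPM for Y-KO and 1152 to 1222 CPM for Y-Scr. Of 12 macrophage and monocyte markers 6 rose, with sums of 2414 and 2387 CPM for Y-KO replicates 1 and 2, 1238 CPM in replicate 3 and 1406 to 1499 CPM for Y-Scr. Of 8 neutrophil markers 6 fell (434 to 833 CPM against 1622 to 1825 CPM), and of 12 fibroblast markers 4 fell, with sums of 356 and 367 CPM for Y-KO replicates 1 and 2, 805 CPM in replicate 3 and 1457 to 1516 CPM for Y-Scr. None of the 9 blood endothelial markers tested was called (24.1 to 40.3 CPM against 38.2 to 44.9 CPM). Of 10 epithelial and urothelial markers tested 4 rose and 1 fell (3278 to 3471 CPM against 2413 to 2740 CPM). Krt8 and Krt18 held most of this sum, and the list was split. In 4 of the 10 all Y-KO values were above all Y-Scr values, and in 4 all were below, against 17.5% and 20.3% of all genes. The macrophage sum and the sum of the 44 genes were both higher in Y-KO replicates 1 and 2 than in all other libraries, and the part of any of these cell types in the result was not tested. Of the 10 endothelial markers, Pecam1 held most of the sum, at 16.0 to 37.9 CPM, Cdh5, Kdr and Vwf were at 0.785 to 4.52 CPM, and the other 6 were under 1 CPM in every library. Ptprc, which encodes CD45, the antigen the gate was set against, stood at 293, 298 and 134 CPM for Y-KO and at 521 to 601 CPM for Y-Scr.

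**Figure D5:**
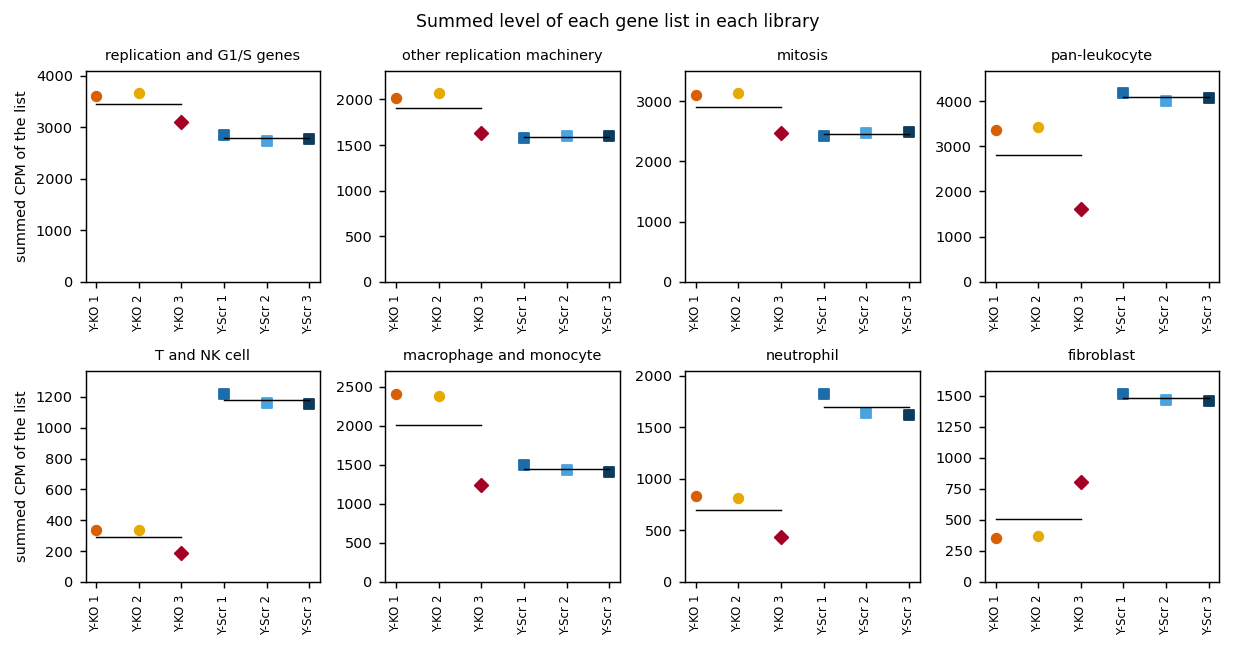
Summed CPM of 8 gene lists in each library (axes from 0), with circles for Y-KO replicates 1 and 2, diamonds for Y-KO replicate 3, squares for Y-Scr and a line at each group mean. The replication, mitosis and macrophage panels have Y-KO replicates 1 and 2 highest, and the T and NK cell, neutrophil and fibroblast panels have all Y-KO libraries below Y-Scr.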

How the data were processed

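The deposited table holds raw counts for each gene in the 6 libraries. Per the file headers, the authors ran featureCounts 1.5.3 on GRCm39 alignments with Ensembl 112 gene models and set no other option. Per the labels' protocols, poly-A RNA was prepared with a stranded kit. The defaults of that version ignore strand and leave out reads that fit several genes or places. Per the submitters' processing notes, Trimmomatic 0.39 and STAR 2.5.2b were used. Between 80.3% and 82.3% of counts from 2 to 20 were even, as when both reads of a pair are counted.

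Symbols were matched by gene ID (51880 IDs, 90.7%). Counts were tested with edgeR 4.0.16 (filterByExpr with a minimum count of 10 and total of 15, TMM, quasi-likelihood test, group alone), calling adjusted p under 0.05. SE is the log2 fold change over the root of F. Log2 CPM used a prior count of 2. Alternatives were DESeq2 1.42.0, limma-voom (limma 3.58.1), other scalings and filters, halved counts, summed close pairs, a replicate block and leaving out each library. Fits were checked on simulated counts with a common spread for all genes. Of 50 genes changed at each fold, 2% were recovered at 1.5-fold, 18% at 2-fold and 100% at 4-fold and 8-fold. Of 120 calls, 10 were false. The largest fold of the 44 genes was 1.65, so a gene not called is not shown to be unchanged. Plots used matplotlib 3.10.9. Members and lists were chosen with earlier results of these data known. All 44 genes could be named, and of other lists the called genes with the smallest p in each direction (4 in each pathway list, 3 of the mitosis list) and E2F, pocket protein, cyclin and inhibitor genes. Kdm5d and the cell type markers named singly were chosen after their values were seen.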

Additional observations from a re-analysis of the deposited data

How the results depend on the processing

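The count of 9 genes higher was 10 to 13 with another tool, DESeq2 size factors, another filter or halved counts, 4 with library size alone, 5 with the replicate number as a block and 0 with close pairs summed. Leaving out 1 library gave 2 to 28. No setting called a member lower. The labels do not say whether replicate numbers pair the libraries. No shared deviation by number was seen: deviations from the group means correlated at -0.0084, 0.0049 and -0.0145 for numbers 1, 2 and 3. Y-KO replicate 1 correlated best with Y-Scr replicate 3. A small effect shared by a pair could give the same values, so pairing is not excluded. Over all genes the block called 946 higher and 1120 lower, library size alone 730 and 2255, and close pairs summed 136 and 360, against 1395 and 1476, and leaving out 1 library 461 to 3029 and 560 to 3364. Without a low-count filter 11 mitosis genes rose in place of 7, and DESeq2 called 16 other pathway genes higher in place of 10. With library size alone 4 other pathway genes and 2 mitosis genes rose, and the block left 3 other pathway genes lower in place of 5.

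With library size alone the log2 fold change turned below 0 for Cdc6 (-0.062), Gins3 (-0.10), Gins4 (-0.095), Prim1 (-0.048), Rfc2 (-0.013), Rpa1 (-0.017), Fen1 (-0.069), Tyms (-0.014) and Rb1 (-0.027), none of them called. With close pairs summed it did so for Cdc6 (-0.073). Leaving out 1 library gave -0.0501 to 0.30 for Cdc6, -0.044 to 0.18 for Gins3, -0.024 to 0.12 for Gins4 and -0.16 to 0.21 for Fen1. The causes were not tested. Of the 44, Fen1 had the fewest counts and the widest SE (0.35).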
